A study of Homo sapiens with 26 samples.

Results

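The 9 genes SESN1, SESN2, TIGAR, FDXR, GLS2, GPX1, SCO2, SLC7A11 and FUCA1, p53 targets or genes linked to p53 whose products act on metabolism and on oxidants, were followed through 16 lists of histone-mark peaks. A peak belonged to a gene when it overlapped the gene body or the 50 kb on either side of it on the GRCh37 genome. Peaks of all lists of a mark that touched were joined into regions, which gave 137 of the 87608 regions with acetylated lysine 27 of histone H3 (H3K27ac, found at promoters and enhancers in use) and 100 of the 110276 regions with monomethylated lysine 4 (H3K4me1, which enhancers carry whether primed or in use). A peak was placed with a gene by position alone.

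The cells were HCT116, a human colorectal cancer line that carries wild-type p53. Wild-type (WT) cells were given DMSO, the solvent control (0 h), or were treated for 1 h or 10 h with Nutlin-3a, a blocker of the contact between p53 and its inhibitor HDM2. A derivative of HCT116 in which the cohesin subunit RAD21 carries an auxin-inducible degron, called the RAD21 line here, received DMSO or Nutlin-3a for 1 h; the study describes degradation of RAD21 beforehand, the peak names carry a knockdown tag, and the labels do not state the auxin treatment. There were 2 lists in each of 8 groups, 10 lists of H3K27ac (all 5 groups of cells) and 6 of H3K4me1 (the 3 WT groups), and the study describes the 2 lists of a group as biological replicates. The files held peaks and no counts, so the depth behind each peak cannot be read from them.

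p53 is held low in resting cells by HDM2 and accumulates when that contact is blocked. It then binds DNA at response elements made of a pair of adjoining decamers. Apart from genes that arrest the cell cycle or start apoptosis, its known targets include genes that lower reactive oxygen species, redirect glucose and glutamine use and sustain respiration. Sestrins (SESN1, SESN2) restrain mTORC1 and help to recycle peroxiredoxins. TIGAR lowers fructose-2,6-bisphosphate and favours the pentose phosphate pathway, GLS2 is a mitochondrial glutaminase, and GPX1 is a selenium-dependent glutathione peroxidase. FDXR (ferredoxin reductase) supplies electrons to mitochondrial cytochromes, and SCO2 delivers copper to cytochrome c oxidase. SLC7A11 is the cystine importer of system xc-, known as a gene that p53 represses, and FUCA1 is the lysosomal enzyme that removes fucose from glycans.

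The DNA of the windows was searched on both strands for a pair of adjoining p53 consensus decamers, with no spacer, both bases of the C and G core of each decamer required and up to 2 mismatches elsewhere. There were 11 matches in 1.22 Mb of windows, or 9.02 per Mb, against 7.63 per Mb of the genome and 23.2 per Mb of all H3K27ac regions. A match lay in 4 of the 137 H3K27ac regions of the windows (2.92%), and in 2.77% of all H3K27ac regions on the assembled chromosomes. The windows of TIGAR and SLC7A11 held none of these letters. The 6 matches below are shown because each lies in a member gene or in a region of either mark. They are printed 5′ to 3′ on the strand of the gene, with the central 4 bases of each decamer in capitals.
GPX1, promoter: gggCCAGaccagaCATGcct
GLS2, start of the gene: aggCTTGctggggCATGcgc
FDXR window, inside USH1G: gggCTTGccagggCTGGccc
SCO2 window, inside SBF1: gcaCTAGcccagaCTTGccc
SESN1, upstream: agtCTAGcccagaCAAGccc
SESN2, upstream: cagCATGtctatgCATGcct

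On GRCh37 the GPX1 match lay at chr3:49395954-49395973 (minus strand), at −177 bp from the transcription start site (TSS) of the canonical transcript and inside an exon of another GPX1 transcript, with 2 mismatches. The GLS2 match lay at chr12:56881897-56881916 (minus strand), 38 bp into the first transcribed bases, with 2 mismatches. The USH1G match lay at chr17:72917313-72917332 (minus strand), at −48203 bp from the TSS of FDXR. The SBF1 match lay at chr22:50915385-50915404 (minus strand), 48632 bp downstream of the TSS of SCO2. The SESN1 match lay at chr6:109438645-109438664 (minus strand), at −22605 bp and inside CEP57L1. The SESN2 match lay at chr1:28568543-28568562 (plus strand), at −17476 bp and inside ATP5IF1. A match of letters is a description of the sequence and not evidence that p53 was bound there.

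The H3K27ac state around these letters differed from gene to gene. The GPX1 match lay inside a peak in all 10 lists and the GLS2 match in none. The SESN1 and SESN2 matches lay in H3K4me1 regions and in no H3K27ac peak of any list. The USH1G match lay in the peaks of 2 lists, both WT 10 h lists, and the SBF1 match in that of 1, RAD21 line 1 h replicate 2.

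H3K27ac lay on the promoters (1000 bp upstream to 200 bp downstream of a TSS) of 8 of the 9 genes in all 10 lists, and on the GLS2 promoter in none. Of 20149 protein-coding genes, 57.9% had a promoter peak in all 10 lists and 34.5% had none in any. Strength was read as the percentile of the peak within its own list when ranked by the caller's −log10 p-value, 100 being the strongest peak. By the median over the 10 lists the order was FDXR (96.6), TIGAR (91.0), SESN1 (88.8), GPX1 (86.5), SCO2 (85.1), SESN2 (80.4), SLC7A11 (79.4) and FUCA1 (61.3). The median of the 11673 promoters with a peak in all 10 lists was 85.1 by their mean percentile. FDXR stood above TIGAR in 9 of 10 lists and SLC7A11 above FUCA1 in 10 of 10, while the neighbours from TIGAR to SLC7A11 changed places in 3 to 5 lists, so their order was within the spread between lists. A percentile of a p-value rank also grows with the width of a peak and with depth, and it is not an amount of acetylation.

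**Figure D1:**
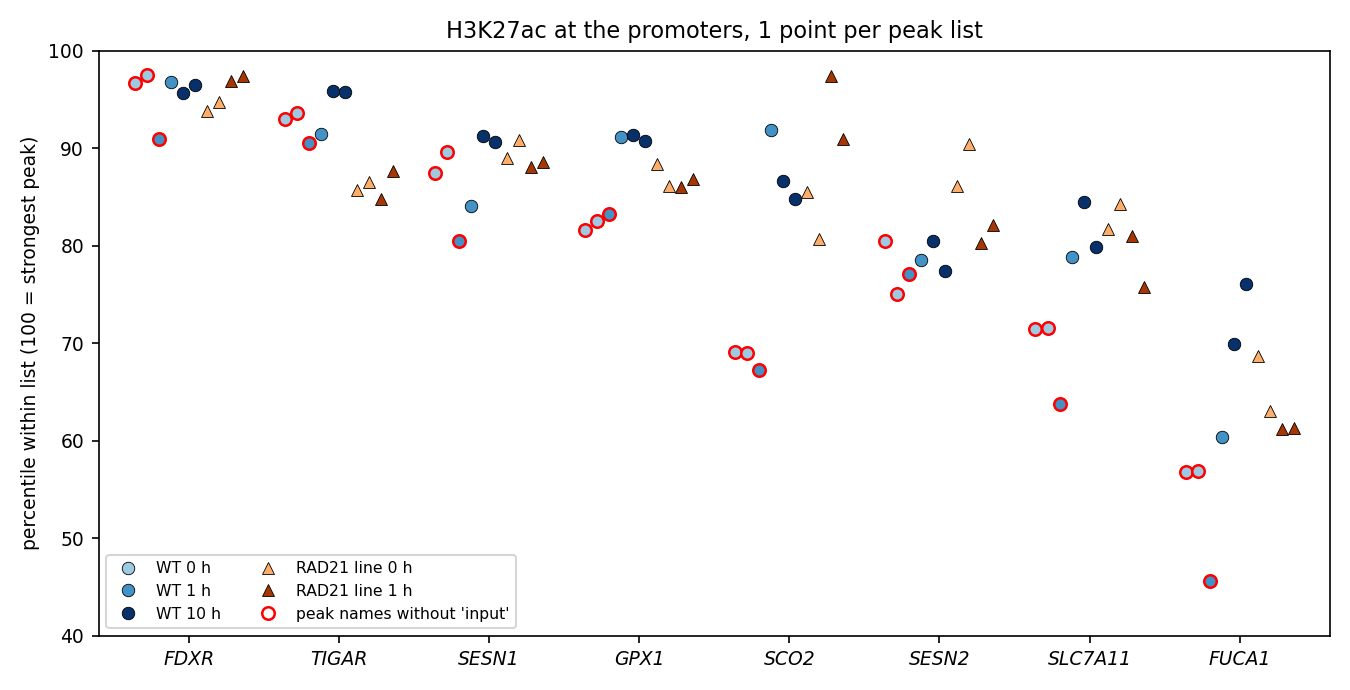
Percentile of the strongest H3K27ac promoter peak within its own list (vertical axis, 100 = strongest) for the 8 genes that had one, with 1 point per list and colours for the 5 groups. Red outlines mark the 3 lists whose peak names lack the word input, and at GPX1, SCO2, SLC7A11 and FUCA1 these 3 points lie below the other 7.

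The FDXR promoter was at the 96.7 and 97.5 percentiles in WT 0 h, 90.9 and 96.7 in WT 1 h, 95.6 and 96.5 in WT 10 h, 93.8 and 94.7 in the RAD21 line at 0 h, and 96.9 and 97.4 there at 1 h. FUCA1, at the other end, was at 56.8 and 56.9 in WT 0 h, 45.6 and 60.4 in WT 1 h, 69.9 and 76.1 in WT 10 h, 68.7 and 63.1 in the RAD21 line at 0 h, and 61.2 and 61.3 there at 1 h. FDXR stayed near the top of every list, and FUCA1 was highest in both WT 10 h lists by this percentile. Among the 18757 H3K27ac regions called in all 10 lists, FUCA1 was at 28.2 and 30.0 in WT 0 h and at 25.6 and 42.1 in WT 10 h. On that scale WT 10 h replicate 1 lay below both WT 0 h lists. SCO2, whose range was about as wide as that of FUCA1, went from 69.1 and 69.0 in WT 0 h and 67.3 and 91.9 in WT 1 h, through 86.6 and 84.8 in WT 10 h and 85.5 and 80.7 in the RAD21 line at 0 h, to 97.4 and 90.9 there at 1 h. The 2 WT 1 h lists of SCO2 did not agree, and its promoter lies among those of TYMP and ODF3B, which a broad peak covers together.

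The TIGAR promoter stood lower in the RAD21 line than in WT. It was at 93.0 and 93.6 in WT 0 h, 90.6 and 91.4 in WT 1 h, 95.9 and 95.8 in WT 10 h, but 85.8 and 86.6 in the RAD21 line at 0 h and 84.8 and 87.7 there at 1 h. All 4 lists of the RAD21 line lay below all 6 of WT. The share of coding promoters that separate in this way was not counted, and the difference between lines was not tested. SESN1, SESN2, GPX1 and SLC7A11 ranged from 80.5 to 91.3, from 75.1 to 90.4, from 81.6 to 91.4 and from 63.8 to 84.5. SESN1 carried a further promoter peak at an internal start 84441 bp into the gene (chr6:109329750-109331608) in all 10 lists.

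The lists also differed in a way that cuts across the groups. In 7 H3K27ac lists each peak name holds the word input, and in both WT 0 h lists and in WT 1 h replicate 1 it does not. Those 3 lists held 31640 to 33976 peaks over 30.7 to 31.9 Mb, with a highest fold enrichment of 30.2 to 31.5, and the other 7 held 39092 to 49127 peaks over 49.1 to 66.6 Mb, with a highest fold enrichment of 103 to 296. At 4 of the 8 promoters (GPX1, SCO2, SLC7A11 and FUCA1) the 3 lists all lay below the other 7, against 20.1% of coding promoters. Promoter peaks were narrower in those 3 lists at 6 of 8 genes. The same count was not made over all coding promoters. WT 10 h lists all carry the word and WT 0 h lists all lack it, so in WT the 10 h treatment and the form of the peak name cannot be told apart. Within the lists that carry it, WT 1 h replicate 2 can be set beside WT 10 h, and the RAD21 line can be compared in full.

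The position of the summit was stable at TIGAR, 206 to 276 bp downstream of the TSS in all 10 lists, and at SESN2, 159 to 406 bp downstream. At GPX1 it lay 217 to 322 bp downstream in WT 0 h, WT 1 h and the RAD21 line at 0 h, and 294 to 347 bp upstream in both WT 10 h lists and both RAD21 line 1 h lists. The p53 match of GPX1 lies between these 2 positions. A summit on either side of the TSS was not particular to GPX1. At SESN1 it lay 89 to 117 bp downstream in WT 1 h replicate 2 and both RAD21 line 1 h lists, and upstream in the other lists. At SLC7A11 it lay 368 and 325 bp downstream in WT 1 h and upstream elsewhere. FDXR and SCO2 also had summits on both sides, and the share of all promoters was not counted. The GPX1 promoter peak was 1591 and 1551 bp wide in WT 0 h, 1646 and 2911 bp in WT 1 h, 3679 and 6466 bp in WT 10 h, 2371 and 2825 bp in the RAD21 line at 0 h, and 4635 and 5696 bp there at 1 h. It was thus widest in the lists with the upstream summit, the RAD21 line at 1 h included, where all 4 lists carry the same form of peak name.

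FUCA1 had an H3K27ac peak inside the gene, apart from the promoter, in 9 of 10 lists. The region spanned chr1:24191166-24192859 and overlapped an exon. Its peak was 294 and 349 bp wide in WT 0 h, 287 bp in WT 1 h replicate 1 and absent from WT 1 h replicate 2, and it was 1398 and 1211 bp wide in WT 10 h. In the RAD21 line it was 1068 and 1155 bp wide at 0 h and 1643 and 1694 bp at 1 h. All 6 peaks of WT 10 h and of the RAD21 line were wider than the 3 of WT 0 h and WT 1 h. All 3 narrow peaks come from lists whose peak names lack the word input. The 6 wide ones come from lists that carry it, so the group and the form of the peak name cannot be told apart here.

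Its percentile within the list was 31.3 and 5.5 in WT 0 h, 14.2 in WT 1 h replicate 1, 65.7 and 63.1 in WT 10 h, 51.9 and 49.3 in the RAD21 line at 0 h, and 56.7 and 60.0 there at 1 h. The WT 10 h values lay above all others and the WT 0 h and 1 h values below all others. Those WT 0 h and 1 h values again come from lists without the word input. WT 1 h replicate 2, which has the same form of peak name as WT 10 h, had no peak there. A single H3K4me1 peak of 4524 to 4896 bp spanned both the promoter and this element in all 6 H3K4me1 lists. Because 1 list had no H3K27ac peak, the region was outside the tested set and these values carry no test.

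**Figure D2:**
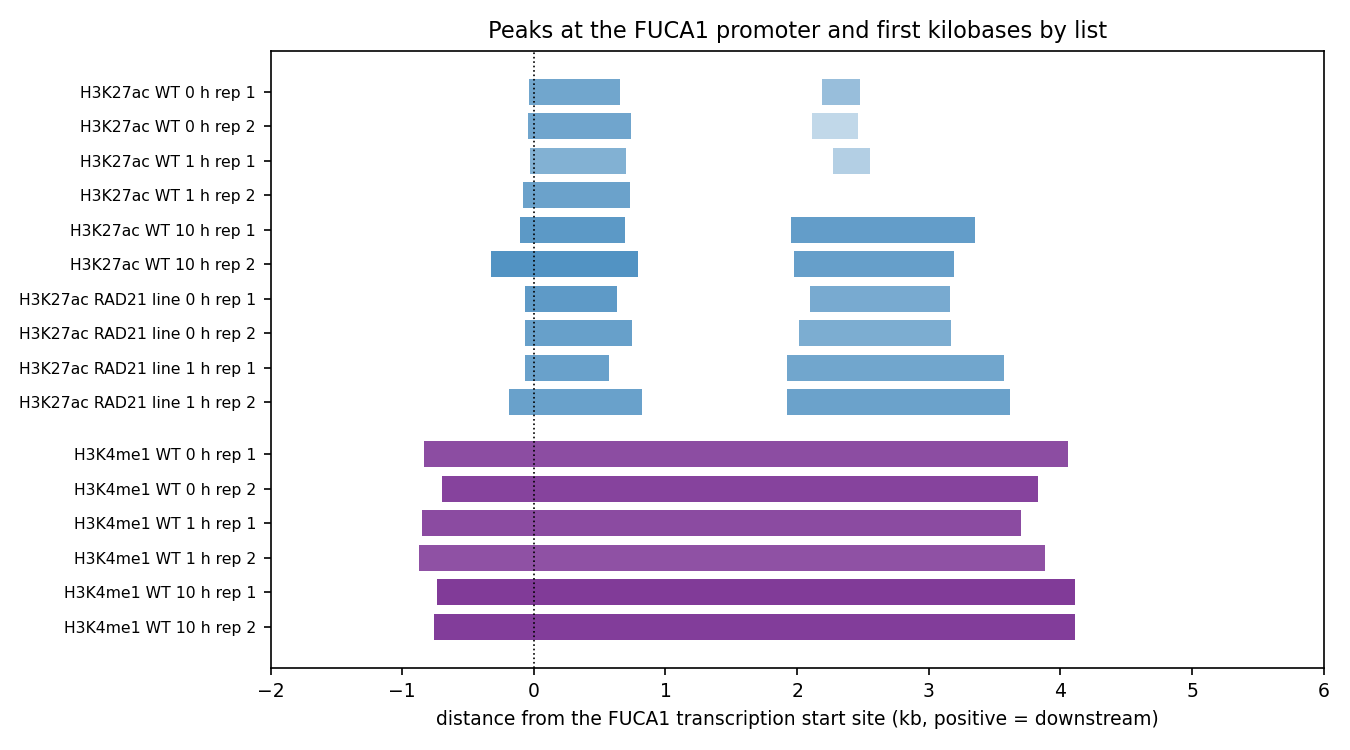
Peaks of each list between 2 kb upstream and 6 kb downstream of the FUCA1 TSS (dotted line), H3K27ac in blue and H3K4me1 in purple, darker for a higher percentile. The H3K27ac peaks beyond the promoter in WT 10 h and in the RAD21 line (1068 to 1694 bp) are wider than those of WT 0 h and WT 1 h replicate 1 (287 to 349 bp). The latter are the lists whose peak names lack the word input.

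The length that H3K27ac peaks covered in the windows was greatest at GPX1 in WT 10 h. There it was 3.44 and 3.25 kb in WT 0 h, 3.52 and 9.89 kb in WT 1 h, 42.9 and 36.6 kb in WT 10 h, 8.91 and 14.4 kb in the RAD21 line at 0 h, and 19.5 and 18.2 kb there at 1 h. The number of peaks in the window went with it, 3 and 3 in WT 0 h, 3 and 12 in WT 1 h, 38 and 37 in WT 10 h, 11 and 20 in the RAD21 line at 0 h, and 23 and 17 there at 1 h. WT 1 h replicate 2, with the same form of peak name as WT 10 h, had 12 peaks of a list of 40851, where the WT 10 h lists had 38 and 37 of 49127 and 46638. In the other 8 windows the covered length was 1.39 to 10.1 kb in the 3 lists without the word input and 1.86 to 23.0 kb in the other 7. It was lower in the 3 lists at 8 of all 9 genes, the exception being SESN1. Those 3 lists also covered less of the genome as a whole, and windows of other genes were not counted.

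**Figure D3:**
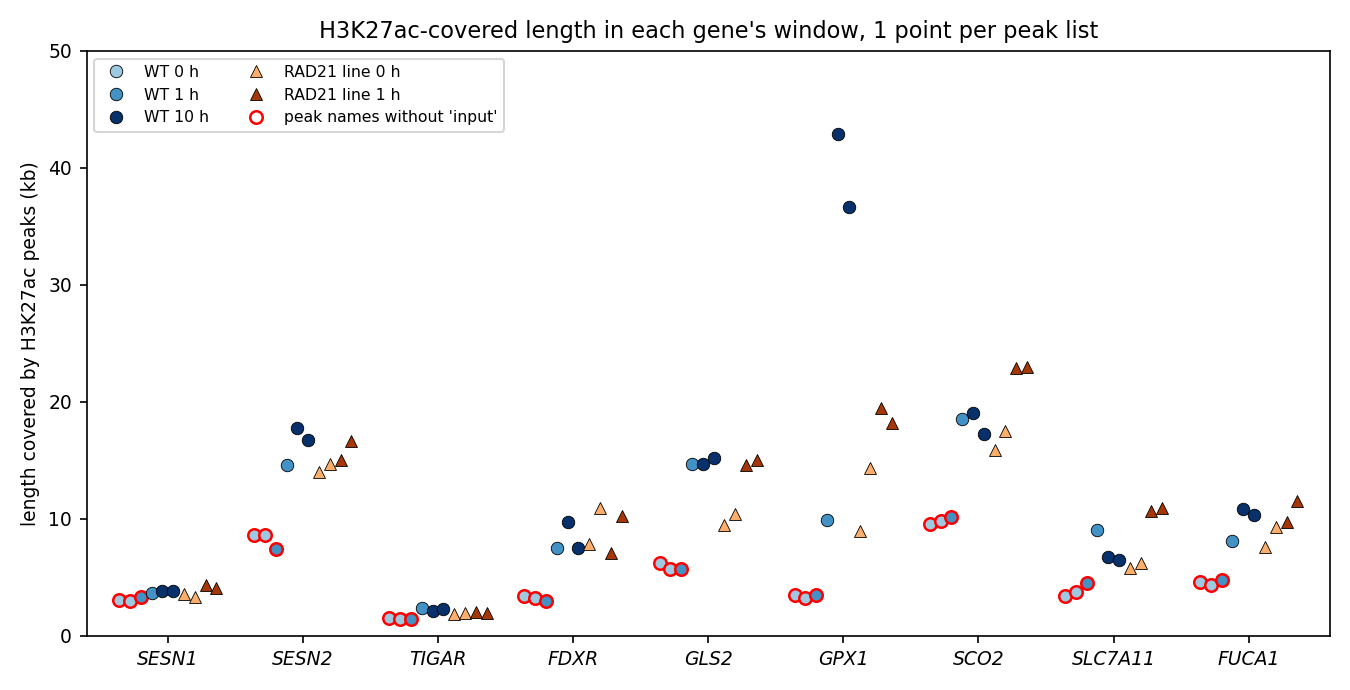
Length of each gene's window covered by H3K27ac peaks (kb, vertical axis starting at 0), 1 point per list, with red outlines for the 3 lists whose peak names lack the word input. The 2 WT 10 h lists at GPX1 (42.9 and 36.6 kb) lie above every other point.

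A region was counted as gained when both later lists and neither earlier list had a peak in it, and as lost in the opposite case. With 2 lists against 2 no permutation test of a single region can pass a threshold of 0.05, so these are counts with no test. In WT at 10 h, 27 of the 137 H3K27ac regions were gained and none was lost. Over all H3K27ac regions 11.4% were gained and 1.9% were lost. Of the 27, 20 lay in the GPX1 window, 15 of them inside RHOA and 5 inside USP4, and 7 in the other windows. RHOA (chr3:49396572-49450431, minus strand) begins its transcription beyond the edge of that window and runs up to GPX1.

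The strongest of them lay in introns of RHOA (chr3:49413058-49417916), of USP4 (chr3:49365407-49367437) and of RHOA again (chr3:49427522-49430891). The first was at the 66.9 and 61.8 percentiles in WT 10 h, with 46.0 in WT 1 h replicate 2, 5.19 in WT 1 h replicate 1, no call in WT 0 h, and 44.6, 45.9 and 53.8 in 3 of the 4 lists of the RAD21 line. It was also the 1 region gained in WT at 1 h. The USP4 region was at 60.8 and 65.0 in WT 10 h, 17.0 in WT 1 h replicate 2, and 21.3 to 45.0 in the RAD21 line. Of the 20 regions, WT 1 h replicate 2 held 4 and the 4 lists of the RAD21 line held 4, 10, 9 and 9. Of all 10018 regions gained at 10 h, WT 1 h replicate 2 held 28.9% and those 4 lists held 28.6%, 34.4%, 29.9% and 30.5%.

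Most of the gained regions overlapped an H3K4me1 region that had a peak in WT at 0 h. This held for 13 of the 20 GPX1 regions and 4 of the 7 others. That was 63.0% of the 27, against 41.8% of the 10018 H3K27ac regions gained at 10 h in the whole series. Most of the 13 lay on 1 broad H3K4me1 region in RHOA (chr3:49414145-49440934), so they are not separate sites of that mark. Each H3K4me1 region was joined over all lists of that mark, those of 1 h and 10 h included. Its peak at 0 h need not lie at the gained site, so H3K4me1 at that site before treatment was not tested. The 2 H3K4me1 regions gained in the windows at 10 h, in an intron of USP4 (chr3:49365889-49367134) and in one of TIMELESS in the GLS2 window (chr12:56829279-56830133), both overlapped an H3K27ac region gained at 10 h. Of the 2902 H3K4me1 regions gained at 10 h in the whole series, 13.2% did.

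**Figure D4:**
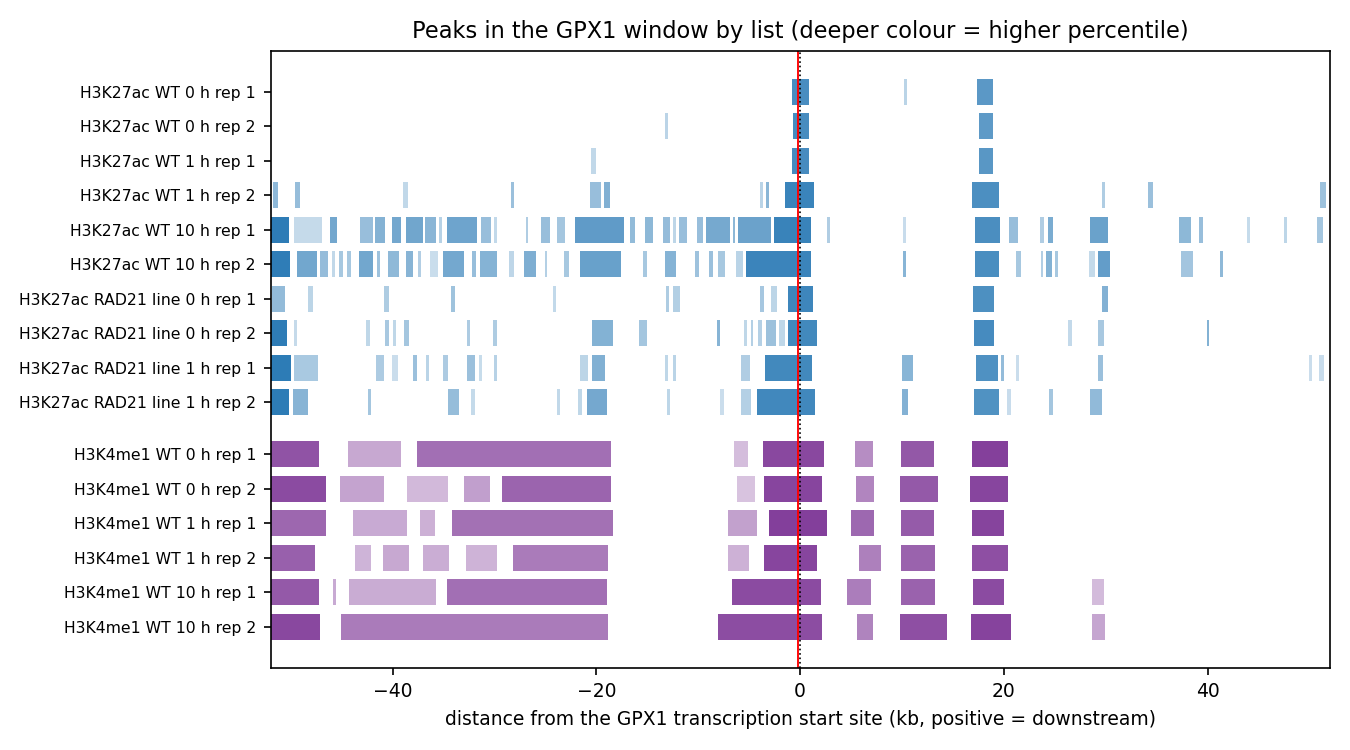
Peaks of each list in the GPX1 window by distance from the GPX1 TSS (kb, positive downstream), H3K27ac in blue and H3K4me1 in purple, darker for a higher percentile, with the p53 match as a red line beside the dotted TSS. RHOA runs from the left edge up to GPX1, and its stretch carries most H3K27ac peaks in the 2 WT 10 h lists, which have 38 and 37 peaks in the window.

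Among the 7 gained outside the GPX1 window was the small USH1G region that holds a p53 match (chr17:72916963-72917544). It was at the 28.1 and 19.5 percentiles in WT 10 h and was called in no other list. An internal FDXR start (chr17:72864645-72865835) was at 28.5 and 32.4 in WT 10 h, with 34.7 in WT 1 h replicate 2 and 18.1 in the RAD21 line at 0 h replicate 2. In SLC7A11 an intronic region (chr4:139123566-139124581) was at 20.5 and 51.2 in WT 10 h, 43.6 in WT 1 h replicate 2 and 22.7 to 52.5 in the RAD21 line. The last 2 regions thus had a peak in the WT 1 h list that shares the form of peak name of WT 10 h, and the USH1G region did not.

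In WT at 1 h, 1 H3K27ac region was gained and none was lost, against 1.51% gained and 1.32% lost over all regions. In the RAD21 line at 1 h, 7 were gained and 3 were lost, against 4.61% and 2.87%. The strongest gained one lay in an intron of SLC7A11 (chr4:139112870-139114198), at the 49.5 and 42.2 percentiles at 1 h and uncalled at 0 h. It was called at 23.0 in WT 1 h replicate 2 and in no other WT list, and it sits inside the strongest H3K4me1 region of that window outside the promoter (chr4:139111944-139115916). The 3 lost regions all lay in TMEM104 in the FDXR window, the strongest (chr17:72833014-72834138) at 13.4 and 55.0 in the RAD21 line at 0 h. For H3K4me1, none was gained and 1 was lost in WT at 1 h, against 3.3% and 1.75%, and 2 were gained and 1 was lost at 10 h, against 2.63% and 2.29%.

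For a test, each region called in all lists of its mark was ranked within each list by −log10 p, the rank was turned into a normal score, and limma with Benjamini-Hochberg adjustment was fitted over all 18757 such H3K27ac regions, with all 5 groups sharing 1 estimate of the spread. The windows held 29 of them, 9 at promoters of 8 of the genes (SESN1 has 2). A change is a difference of normal scores and shows a shift in standing among regions, not in amount. Percentiles in the sentences on this test are among the 18757 regions. A region takes its strongest peak, so at a shared promoter the neighbour may set the value. The region named SCO2 in this test spans the promoters of SCO2, TYMP and ODF3B. The comparisons with WT 0 h share those lists.

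In WT at 1 h, 2 of the 29 regions rose and 6 fell (adjusted p under 0.05), against 14.3% and 14.8% of all regions. The median change was −0.10 over the 29 and −0.0069 over all regions. The SESN1 promoter, which also serves CEP57L1, was the 1 promoter of a member gene among them. It was at the 77.7 and 82.2 percentiles at 0 h and 67.8 and 66.0 at 1 h, so that both lists at 1 h lay below both at 0 h. The change was −0.40 ± 0.11 (SE, n = 2 lists per group, limma adjusted p = 0.0156). Against the mean of WT 0 h it was −0.38 for replicate 1, which has the same form of peak name, and −0.43 for replicate 2. Without WT 0 h replicate 2 the change was −0.32, with an adjusted p of 0.14 by limma.

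The other 7 changes in WT at 1 h were at neighbours. TIMELESS, a gene of replication fork protection in the GLS2 window, rose by 0.82 ± 0.18 (limma adjusted p = 0.0044), from 65.6 and 64.0 to 93.6 and 80.9. The ATP5IF1 promoter in the SESN2 window rose by 0.38 ± 0.13. The largest fall was at an intergenic region of the SESN2 window (chr1:28639798-28640929), from 16.5 and 15.2 to 0.352 and 0.882, a change of −1.53 ± 0.29 (limma adjusted p = 0.0024). The NCAPH2 and LMF2 promoters in the SCO2 window fell by 0.71, SYCE3 and ADM2 in the same window by 0.87 and 0.36, and an exonic region of GRIN2C in the FDXR window by 0.93. With the form of the peak name as a term, the WT 1 h change is that of replicate 1 alone, because replicate 2 sets the term. In that fit the FDXR promoter fell by 0.61 and the SCO2 region by 0.59. Replicate 2 alone gave −0.17 and 0.53 against the mean of WT 0 h. ATP5IF1 rose by 0.22 with the term and lost its call. As single lists were left out, the ATP5IF1 call was lost in 9 of 10 fits, all but that without WT 1 h replicate 1, and the ADM2 call in 7, with the highest adjusted p by limma 0.256 and 0.203. The SYCE3 call was lost without either WT 0 h list (limma adjusted p = 0.074 and 0.0614), and the GRIN2C call without WT 0 h replicate 2 (limma adjusted p = 0.0876). None of the 8 calls held when regions were ranked by fold enrichment. The count that rose was 1 or 6 when a single list was left out, 6 without WT 1 h replicate 1, and the count that fell was 2 without WT 0 h replicate 2 and 10 without WT 1 h replicate 2.

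In WT at 10 h, 1 region rose and 4 fell, against 9.7% and 8.56% of all regions (medians −0.11 and −0.036), and no promoter of a member gene passed the test. Here the 8 genes divide by sign without passing. GPX1 went from 67.7 and 70.2 to 77.7 and 77.4, a change of 0.26 ± 0.13, SESN2 from 65.7 and 58.0 to 50.0 and 45.2, a change of −0.36 ± 0.13, and FDXR from 94.2 and 95.7 to 88.6 and 91.3, a change of −0.36 ± 0.15 (limma adjusted p = 0.158, 0.0717 and 0.107). The changes of the other 6 promoter regions lay between −0.10 and 0.27. In each of the 3 genes the 2 lists at 10 h lay on 1 side of the 2 at 0 h, a difference that did not pass the test over all regions. The same held at TIGAR (87.5 and 88.9 to 89.4 and 89.6), at SCO2 (86.1 and 85.1 to 91.6 and 90.0) and at the main SESN1 promoter (77.7 and 82.2 to 77.4 and 77.1). It did not hold at SLC7A11, FUCA1 or the internal SESN1 start. The form of the peak name divides these lists in the same way. The share of all tested regions that separate so was not counted.

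The regions that passed were again neighbours. The TIMELESS promoter, which had risen at 1 h, fell by 1.06 ± 0.18 at 10 h, to 25.9 and 24.0 (limma adjusted p = 0.00235). The NCAPH2 and LMF2 promoters fell by 0.93, SYCE3 by 0.77 and ADM2 by 0.57, and ATP5IF1 rose by 0.56. With the form of the peak name as a term these 5 calls were lost (limma adjusted p from 0.0727 to 0.562), and 4 other regions fell, among them the promoters of FDXR (−0.81, limma adjusted p = 0.00928) and SCO2 (−0.85, limma adjusted p = 0.00518). The SYCE3, ADM2 and ATP5IF1 calls were also lost as single lists were left out, SYCE3 without either WT 0 h list, WT 10 h replicate 2 or either RAD21 line 1 h list, ADM2 without WT 0 h replicate 2 or either WT 10 h list, and ATP5IF1 without any 1 of the WT 0 h and 10 h lists (limma adjusted p from 0.0524 to 0.245). In the fit with the peak name the 10 h change rests on how the 2 WT 1 h lists differ, since they are the 1 group that holds both forms. Counts at 10 h ranged from 0 to 5 that rose and from 2 to 9 that fell as single lists were left out, with 5 and 9 without WT 1 h replicate 1 or replicate 2, 2 that fell without WT 0 h replicate 2 or WT 10 h replicate 2, and none that rose without either WT 0 h or either WT 10 h list.

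In the RAD21 line at 1 h, where all lists carry the same form of peak name, 4 regions rose and 4 fell, against 14.4% and 13.4% of all regions (medians 0.05 and 0.037). Of the falls, 3 lay side by side at SESN2. The SESN2 promoter went from the 70.5 and 78.2 percentiles to 58.4 and 63.0, a change of −0.39 ± 0.13 (limma adjusted p = 0.0442). A region at −8220 bp from its TSS (chr1:28572639-28577809, overlapping ATP5IF1), which lies on the strongest H3K4me1 region of the window outside the promoter, went from 73.6 and 78.2 to 50.7 and 44.0, a change of −0.77 ± 0.17 (limma adjusted p = 0.0046). The ATP5IF1 promoter, further upstream, went from 72.7 and 72.7 to 46.9 and 50.2, a change of −0.64 ± 0.13 (limma adjusted p = 0.00365). The groups did not overlap in any of the 3, and the share of all tested regions without overlap was not counted. The promoter call was near the threshold: it was lost with the replicate block (limma adjusted p = 0.0539) and without any single list except the 2 of WT 1 h, the highest adjusted p being 0.285 without RAD21 line 0 h replicate 2. The upstream call was lost without RAD21 line 1 h replicate 2 (limma adjusted p = 0.0603).

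DNAJC8, the next promoter upstream, rose by 0.62 ± 0.19 in the same line, from 60.2 and 46.9 to 72.2 and 79.5 (limma adjusted p = 0.0265). TIMELESS rose by 0.92, as it did in WT at 1 h, and SBF1 in the SCO2 window by 0.36, while ADM2 in that window fell by 0.61. The SBF1 call (limma adjusted p = 0.0413) was lost with the replicate block (limma adjusted p = 0.0524) and without either WT 0 h list or any of the 4 lists of the RAD21 line (limma adjusted p from 0.0591 to 0.244). The DNAJC8 call was lost without RAD21 line 0 h replicate 2 or either RAD21 line 1 h list (limma adjusted p from 0.062 to 0.213). The FDXR promoter went from 86.8 and 87.9 to 93.4 and 94.7, a change of 0.42 ± 0.15 that did not pass (limma adjusted p = 0.0533). With the form of the peak name as a term the FDXR change stayed at 0.42 and passed (limma adjusted p = 0.00175). All 4 lists of this line carry 1 form, so the term altered the shared estimate of the spread and not the change. A fall of 0.57 in the SCO2 region also passed with the term (limma adjusted p = 5.61e-05), from 98.6 and 98.1 to 94.5 and 93.7. The strongest peak over the SCO2 promoter itself rose within its lists, from 85.5 and 80.7 to 97.4 and 90.9. None of the 8 calls held under the ranking by fold enrichment. The count that rose was 9 without WT 1 h replicate 1 or replicate 2 and 2 without RAD21 line 0 h replicate 2 or without either RAD21 line 1 h list, and the count that fell was 2 without RAD21 line 1 h replicate 2.

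The response at 1 h was also compared between the lines, as the RAD21 line change minus the WT change. It was higher at 7 regions and lower at 1, against 11.7% and 11.0% of all regions (medians 0.15 and 0.054). None of these held when regions were ranked by fold enrichment. FDXR was the 1 promoter of a member gene among them: in WT it went from 94.2 and 95.7 to 84.8 and 93.0, and in the RAD21 line from 86.8 and 87.9 to 93.4 and 94.7. The difference was 0.81 ± 0.21 (limma adjusted p = 0.0155), with a WT change of −0.61 for replicate 1 and −0.17 for replicate 2, so replicate 1 made most of the WT fall. The adjusted p was 0.0758, 0.0618 and 0.0696 by limma without WT 0 h replicate 2, RAD21 line 0 h replicate 1 and RAD21 line 1 h replicate 2. The SESN2 promoter did not differ by this test (−0.29 ± 0.19, limma adjusted p = 0.284), so its fall is not shown to be particular to the RAD21 line. The count that was higher was 3 without WT 0 h replicate 1, RAD21 line 0 h replicate 2 or RAD21 line 1 h replicate 2 and 4 without WT 0 h replicate 2. The count that was lower was 4 without WT 1 h replicate 1.

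**Figure D5:**
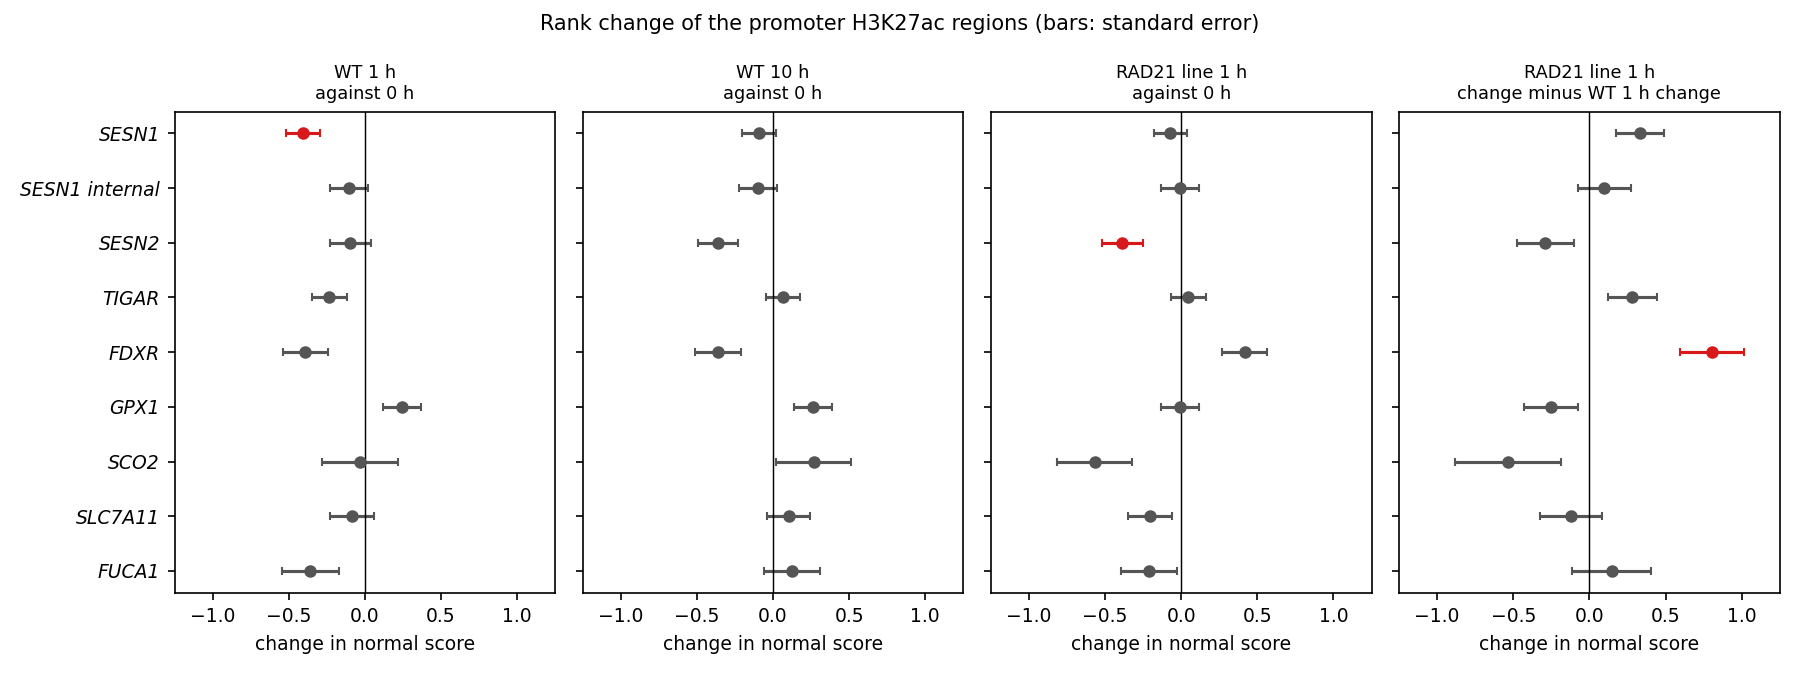
Change in normal score (horizontal axis, bars are standard errors) of the 9 promoter H3K27ac regions in the 4 comparisons, in red where the limma adjusted p was under 0.05. SESN1 is red in WT at 1 h (−0.40), SESN2 in the RAD21 line at 1 h (−0.39) and FDXR in the difference between the lines (0.81).

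H3K4me1 covered more of the windows than H3K27ac, and none of its tested regions passed in either comparison. The windows held 88 to 94 H3K4me1 peaks in each of the 6 lists, and 67 of the 100 regions were called in all 6 (67.0%, against 54.8% of all H3K4me1 regions). For H3K27ac, 29 of 137 were called in all 10 lists (21.2%, against 21.4%). In a limma fit of 60476 regions none of the 67 passed an adjusted p of 0.05 in WT at 1 h or at 10 h, with 8 and 8 at an unadjusted p under 0.05. No setting tried gave a call. Over all regions 0.291% rose and 0.304% fell at 1 h, and 0.615% rose and 0.0231% fell at 10 h. The median change of the 67 was −0.17 at 1 h and −0.04 at 10 h, and that of all regions −0.0032 and −0.018. The change was positive at 14 of the 67 at 1 h and at 30 of them at 10 h, against 49.6% and 47.3% of all regions. The size of change was not compared between the marks by a test.

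GLS2 was the gene with the weakest promoter by both marks. Its promoter had no H3K4me1 peak in WT 0 h replicate 1 and WT 10 h replicate 2, and in the other 4 lists the peak was at the 16.3 (0 h), 11.3 and 38.3 (1 h) and 1.93 (10 h) percentiles. The window held 3 to 8 H3K27ac peaks in each list all the same. Of its 9 H3K27ac regions, the 3 at the promoters of SPRYD4, TIMELESS and RBMS2 were called in all 10 lists, and the other 6, in exons and introns of TIMELESS, in 1 or 2 lists each. The window also held 10 H3K4me1 regions called in all lists, and the strongest of these lay at RBMS2 (chr12:56907228-56926159), with a mean percentile of 95.6. At the other 8 promoters H3K4me1 was called in all 6 lists, from 31.6 at SESN1 (WT 10 h replicate 2) to 95.0 at SESN2 (WT 10 h replicate 1).

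TIGAR had the emptiest window. It held 1 or 2 H3K27ac peaks in each list, the promoter being the 1 region called in more than a single list, against 6 to 8 H3K4me1 peaks. The promoter of CCND2, the cyclin gene upstream of it, carried H3K4me1 in all 6 lists (chr12:4380036-4382565, 40.6 to 73.1) and no H3K27ac region. The SLC7A11 window, with no other coding gene, carried an intronic H3K27ac region in all 10 lists (chr4:139119545-139122258), at the 61.3 and 52.3 percentiles in WT 0 h, 54.1 and 66.8 in WT 1 h, 71.7 and 64.7 in WT 10 h, 68.7 and 78.1 in the RAD21 line at 0 h and 68.4 and 67.9 there at 1 h. None of the comparisons of that region passed the test.

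An H3K4me1 region with H3K27ac over it is the usual sign of an active element. Of the H3K4me1 regions called in both lists of a time point, 29 of 73 in the windows overlapped an H3K27ac region called in both lists in WT at 0 h, 30 of 71 at 1 h and 33 of 75 at 10 h (39.7%, 42.3% and 44.0%). The shares over the whole series were 34.2%, 32.7% and 35.4%. At 10 h the share was highest at GPX1, with 6 of 7 against 3 of 6 at 0 h, and lowest at TIGAR, with 1 of 5 against 1 of 6 at 0 h. FUCA1 had 4 of 12 at each time.

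Of 18 other p53-linked genes of metabolism and redox control, 15 had a promoter peak in all 10 H3K27ac lists, SESN3 in 9, CPT1C in 3 and TXNIP in none. In the 16 promoter regions of that list that were tested, 2 rose and 4 fell in WT at 1 h (against 14.3% and 14.8% of all regions), 4 rose and 1 fell at 10 h (against 9.7% and 8.56%), and 2 rose and 4 fell in the RAD21 line at 1 h (against 14.4% and 13.4%). The median changes were 0.07, 0.07 and 0.14, and those of all regions −0.0069, −0.036 and 0.037. DDIT4, an inhibitor of mTORC1, rose by 0.35 in WT at 1 h and 0.55 at 10 h and fell by 0.70 in the RAD21 line, and the difference between lines was −1.06 ± 0.16 (limma adjusted p = 0.000724). TP53INP1 (0.67) and SAT1 (0.63) rose at 10 h, and ALDH4A1, a proline catabolism enzyme, fell in all 3 comparisons (−1.23, −0.70 and −0.55). PANK1 rose by 0.72 in WT at 1 h, ACAD11 fell by 0.88 in the RAD21 line, PRKAB1 changed by −0.47 in WT at 1 h and by 0.38 in the RAD21 line, and the 2 regions of SOD2 both fell in WT at 1 h. The calls of this list and of the next come from the main fit alone. They were not followed through the other settings, in which many calls in the windows were lost.

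Of 12 glutathione and thioredoxin genes, all had a promoter peak in the 10 lists. Of their 14 tested regions, 3 rose and 2 fell in WT at 1 h (against 14.3% and 14.8% of all regions), none passed at 10 h (4 at an unadjusted p under 0.05 in limma; 9.7% and 8.56% of all regions passed), and 3 rose and 1 fell in the RAD21 line (against 14.4% and 13.4%). GPX4 (1.05), GCLM (0.59) and SLC3A2 (0.52), whose product pairs with SLC7A11 in the cystine importer, rose in WT at 1 h, where PRDX1 (−0.52) and NQO1 (−0.34) fell. GCLC, PRDX1 and GSS rose in the RAD21 line and NQO1 fell there. None of the H3K4me1 regions of either list passed, with 1 or 2 of 20 and of 16 at an unadjusted p under 0.05 in limma at each time. Of 7 epithelial and intestinal markers, EPCAM, CDH1, KRT8, KRT18 and CDX2 had an H3K27ac promoter peak in all 10 lists and VIL1 and CDX1 in none. PTPRC, CD3E, ALB, GFAP and DES, markers of other cell types, had none in any list.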

How the data were processed

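Chromatin immunoprecipitation was measured in 16 libraries, 1 peak list each; the 10 input libraries were not analysed here. Per the labels and the methods of the study, the authors trimmed reads (Trim Galore 0.6.6), aligned them to GRCh37 (Bowtie2 2.3.2), removed low-quality, blacklisted and duplicate reads, and called narrow H3K27ac and broad H3K4me1 peaks per library with MACS2 2.2.7.1 against input. The deposited lists give a fold enrichment (ratio) and the −log10 p-value and q-value of each peak, and for H3K27ac a summit. The lowest −log10 q was 1.3 to 1.33 in the H3K27ac lists and 1.01 to 1.03 in the H3K4me1 lists. Reads per peak are not given in these files, and the read totals that the study gives for each library were not used here.

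Peaks of a mark that overlapped by 1 bp were merged across lists, annotated with GENCODE lifted to GRCh37 (all peaks lay within the reference lengths on 24 of 24 chromosomes) and ranked within each list. limma 3.58.1 (R 4.3.3) was fitted on normal scores with Benjamini-Hochberg adjustment at 0.05, checked on simulated data, with Python 3.11.15 for the rest. The text names every member promoter, the strongest region of each window outside the promoter where it is discussed (a list with no call counted as 0), up to 3 regions past the threshold per comparison and direction by p-value, and up to 3 gained or lost regions by percentile; further called regions, the FUCA1 region inside the gene, USH1G, the FDXR internal start and the SLC7A11 region gained at 10 h were added after their values were seen. The members and gene lists were chosen with earlier results of these data known. Alternatives were another ranking, a replicate block, the form of the peak name as a term, a stricter q, a 50% cover, a 10 kb flank and leaving out each list. PECAM1 was not analysed here, and 1 region, 1 gene of the lists and 1 sequence match are not reported here.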

Additional observations from a re-analysis of the deposited data

Results flagged for a closer look

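The response to 1 h of Nutlin-3a differed between the RAD21 line and WT, by limma with Benjamini-Hochberg adjustment, at 8 H3K27ac regions of the windows, 7 of which are given here. In the SESN2 window the difference was −1.02 at the ATP5IF1 promoter (adjusted p = 0.00222), 1.98 at the intergenic region chr1:28639798-28640929 (adjusted p = 0.00477) and 1.02 at the DNAJC8 promoter (adjusted p = 0.0147). In the SCO2 window it was 1.08 at the NCAPH2 and LMF2 promoters (adjusted p = 0.00253) and 1.02 at SYCE3 (adjusted p = 0.0327). In the FDXR window it was 0.81 at the FDXR promoter (adjusted p = 0.0155) and 1.02 at the GRIN2C exon (adjusted p = 0.0379). As single lists were left out, the SYCE3 difference was lost without either WT 0 h list or any of the 4 lists of the RAD21 line (adjusted p from 0.0526 to 0.102), the GRIN2C difference in 8 of 10 fits, all but those without WT 1 h replicate 1 or RAD21 line 0 h replicate 1 (0.0538 to 0.157), and the DNAJC8 difference without WT 0 h replicate 1, RAD21 line 0 h replicate 2 or RAD21 line 1 h replicate 2 (0.0722 to 0.0772). Both WT 0 h lists and WT 1 h replicate 1 lack the word input in their peak names and WT 1 h replicate 2 carries it, and the part of that in these differences was not tested beyond the fit with it as a term, in which the GRIN2C region lost its call (adjusted p = 0.0634). At the ATP5IF1 promoter the lines moved in opposite directions in all 4 lists at 1 h, from 28.5 and 34.7 to 39.7 and 52.6 among the tested regions in WT, and from 72.7 and 72.7 to 46.9 and 50.2 in the RAD21 line. The lines thus started far apart there, and the WT rise lost its call with the form of the peak name as a term. None of the 7 differences held when regions were ranked by fold enrichment.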

How the results depend on the processing

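Ranking by fold enrichment left 0 regions that rose and 0 that fell for both 1 h comparisons and for the difference between lines, with 2 that rose in WT at 10 h. With the form of the peak name as a term, 1 rose and 10 fell in WT at 1 h, 0 rose at 10 h and 9 rose in the RAD21 line. The replicate block, a paired fit, gave 2 regions that rose in WT at 10 h; same-numbered lists correlated by −0.05 to 0.05 in their deviations, so the numbers share no more than a name. With 1 list left out, the count that rose ranged from 1 to 6 in WT at 1 h, 0 to 5 at 10 h, 2 to 9 in the RAD21 line and 3 to 8 in the difference, and the count that fell from 2 to 10, 2 to 9, 2 to 6 and 1 to 4. Presence at −log10 q of at least 5 left 5 H3K27ac regions gained at 10 h, 0 at 1 h and 2 gained and 0 lost in the RAD21 line, with 0 H3K4me1 regions gained or lost at either time. Requiring peaks to cover 50% of a region gave 1 H3K27ac loss at 1 h and 1 in the RAD21 line, and 2 H3K4me1 regions gained at 1 h and 2 lost at 10 h. A 10 kb flank left 49 H3K27ac and 44 H3K4me1 regions, with 4 H3K27ac regions gained at 10 h, 0 gained at 1 h and 0 lost in the RAD21 line, and 0 H3K4me1 regions gained or lost. Leaving out 1 list gave 28 to 42 H3K27ac regions gained at 10 h (42 without WT 10 h replicate 2) and 0 to 2 lost, 1 to 18 gained at 1 h (18 without WT 1 h replicate 1) and 1 to 3 lost, and 9 to 21 gained and 3 to 14 lost in the RAD21 line (21 without RAD21 line 1 h replicate 1, 14 without RAD21 line 0 h replicate 1). For H3K4me1 it gave 1 to 8 gained and 3 to 4 lost at 1 h and 2 to 6 gained and 1 to 5 lost at 10 h. Direction reversed at the SCO2 promoter, in WT at 1 h (from 0.53 without WT 1 h replicate 1 to −0.59 without replicate 2) and at 10 h (−0.85 with the form of the peak name). Of 27 calls at single regions, 4 held when ranked by fold, 25 with the replicate block, 20 with the form of the peak name, and 25 of the 25 that had a value at the stricter q. A sign change of a value past the threshold in neither fit was not counted. The cause of these shifts was not tested. In the fit with the form of the peak name, the WT 1 h change rests on replicate 1 alone. With 2 lists per group and no counts, small shifts are not resolved.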
